A study of Mus musculus with 24 samples.

Results

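The response to anti-CD3 at 3 h under propyzamide was read from 8 of the 24 RNA sequencing libraries of the series. These were the 4 libraries labelled Propyzamide_AntiCD3_3Hour and the 4 labelled Propyzamide_Naive_None, and membership was taken from the labels alone. The 3 h group came from male C57BL/6 mice aged 11 weeks that received propyzamide and anti-CD3 and were sampled 3 h after stimulation. The unstimulated group came from mice of the same sex, strain and age that received propyzamide and no anti-CD3. Propyzamide is thus shared by both groups. The vehicle groups at the same stages, 4 libraries each from mice of the same sex, strain and age that received an empty vehicle, were used where the response was set beside that without propyzamide, and the 24 h groups served the shared estimate of spread and no comparison. The series title names T cells in a model of inflammatory bowel disease. The sources used here give no dose, route, tissue or cell sort and do not say whether libraries came from separate animals, so p-values measure the spread between these libraries.

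Propyzamide is a herbicide that binds plant tubulin. Anti-CD3 antibody binds the CD3 chains of the T cell receptor complex and drives signalling in T cells regardless of their antigen. Activated T cells release interferon-gamma and tumour necrosis factor, and neighbouring myeloid and epithelial cells answer with chemokines, guanylate-binding proteins and immunity-related GTPases. In the intestine, systemic anti-CD3 is known to injure the epithelium, and Paneth cells of the crypt base are known to discharge their granules under interferon-gamma.

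At 3 h, 6 genes rose (0.158% of the 3799 tested) and 21 fell (0.553%), 27 in all (0.711%). Of the 2465 named protein-coding genes tested, 19 were called (0.771%). Named protein-coding genes that rose were S100a9, Serpina3g, Ccl24, Gbp2 and Sprr2a2, which belong to inflammatory, interferon and epithelial stress programmes. Genes that fell included 6 products of Paneth cells, among them lysozyme and alpha-defensins, and 5 transcripts of the mitochondrial genome. The same 5 named genes were called higher without the shallowest 3 h library, replicate 3, while none of the lower genes was called. Without unstimulated replicate 3, 0 genes were called in either direction. With limma-voom and quality weights, 0 higher and 7 lower genes were called. Every 3 h library was above every unstimulated library for 104 genes (2.74%), and every 3 h library was below every unstimulated library for 194 genes (5.11%). Those shares are the background for each statement on overlap.

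Promoters of 4 of the 10 higher genes of smallest p are shown here, chosen because they hold interferon-type motifs. Gbp2 and Serpina3g were called, while Igtp and Irf1 were not, as their values given after them show. Each is the RefSeq window on GRCm38.p6 from 250 bases before to 50 bases after the start site, in the direction of transcription, with motif matches in capitals. The motifs searched on both strands were the interferon-stimulated response element (ISRE, written as GAAA, any 2 bases and GAAA), the interferon-gamma activated site TTCNNNGAA (GAS), the AP-1 motif TGANTCA and an NF-kappaB motif, and none of the matches printed overlaps another.
Gbp2, chr3:142620413-142620712, plus strand: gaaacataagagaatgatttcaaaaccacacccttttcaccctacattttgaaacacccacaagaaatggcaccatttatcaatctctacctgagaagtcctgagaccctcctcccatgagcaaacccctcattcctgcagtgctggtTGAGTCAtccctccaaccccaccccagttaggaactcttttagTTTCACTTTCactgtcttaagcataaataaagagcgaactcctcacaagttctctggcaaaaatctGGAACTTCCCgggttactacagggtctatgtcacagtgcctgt
Serpina3g, chr12:104235897-104236196, plus strand: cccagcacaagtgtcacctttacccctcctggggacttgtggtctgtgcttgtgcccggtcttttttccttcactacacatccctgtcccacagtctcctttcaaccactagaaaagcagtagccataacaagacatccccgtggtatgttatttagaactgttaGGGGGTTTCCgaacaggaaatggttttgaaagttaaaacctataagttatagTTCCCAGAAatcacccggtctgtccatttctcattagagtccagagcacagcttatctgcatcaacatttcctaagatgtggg
Igtp, chr11:58199306-58199605, plus strand: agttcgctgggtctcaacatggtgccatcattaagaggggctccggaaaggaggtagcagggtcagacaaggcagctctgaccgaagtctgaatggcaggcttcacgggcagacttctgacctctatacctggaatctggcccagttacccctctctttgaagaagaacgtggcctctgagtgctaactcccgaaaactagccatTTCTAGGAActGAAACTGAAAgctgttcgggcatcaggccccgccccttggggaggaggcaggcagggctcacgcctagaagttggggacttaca
Irf1, chr11:53769764-53770063, plus strand: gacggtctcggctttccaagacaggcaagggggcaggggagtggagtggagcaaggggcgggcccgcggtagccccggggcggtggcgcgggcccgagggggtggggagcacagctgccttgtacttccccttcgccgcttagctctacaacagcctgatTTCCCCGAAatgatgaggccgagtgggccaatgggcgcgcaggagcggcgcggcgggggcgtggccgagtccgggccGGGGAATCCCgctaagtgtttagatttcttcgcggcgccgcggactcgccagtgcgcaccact

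Positions are counted from the RefSeq start site. Gbp2 held an ISRE at -59 to -50, an AP-1 match at -102 to -96 and an NF-kappaB match at 8 to 17. Serpina3g held a GAS match at -33 to -25 and an NF-kappaB match at -85 to -76. Igtp held an ISRE at -34 to -25 and a GAS match at -45 to -37, and Irf1 held a GAS match at -90 to -82 and an NF-kappaB match at -13 to -4. Another RefSeq window of Irf1, chr11:53770223-53770522, held none of the motifs, and Irf1 is counted below by the window printed. Among the 10 higher named genes of smallest p, 9 had a promoter in the RefSeq table, of which 2 held an ISRE, 4 a GAS match, 1 an AP-1 match and 3 an NF-kappaB match. Of the 10 lower genes, 8 had a promoter and 0 held any of the motifs in this window. Over all 32851 promoters of the table, 3.44% held an ISRE, 8.3% a GAS match, 7.81% an AP-1 match and 8.46% an NF-kappaB match. These shares are per promoter, while the counts before them are per gene. A match describes the letters in the window and not a bound site. Ccl24, Defa29 and Defa24 are named only.

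These libraries were shallow in known genes. Totals ran from 438750 to 1309423 estimated counts at 3 h and from 630087 to 1587428 without stimulation, and 12 gene models related by sequence to Gm10800, called satellite-like here, took 76.8% ± 3.27 at 3 h and 77.3% ± 2.97 without stimulation (SD, n = 4 each, exact permutation p = 0.857). Named protein-coding genes held 17959 to 78781 counts in 3 h libraries and 39618 to 151744 in unstimulated libraries. The lowest of these values was 3 h replicate 3 and the highest unstimulated replicate 3. Over the 26 lists with at least 5 tested genes, 3 h replicate 3 had the lowest summed level of the 8 libraries in 25, and unstimulated replicate 3 the highest in 13. The groups also carry different i5 indexes, and the labels do not say whether an index marks a batch, so index and group cannot be told apart here. Both vehicle groups carry 1 index, which is why their values stand beside the main results. Defining T cell genes were near the limit of detection: Cd3e, Trac, Cd4 and Cd8a had 1, 2, 6 and 12 counts over the 4 libraries at 3 h and 5, 6, 15 and 14 over the 4 unstimulated libraries. The whole T cell list of 21 genes held 140 counts at 3 h and 263 without stimulation. The Paneth cell list of 25 genes held 4799 counts at 3 h and 18693 without stimulation.

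**Figure D1:**
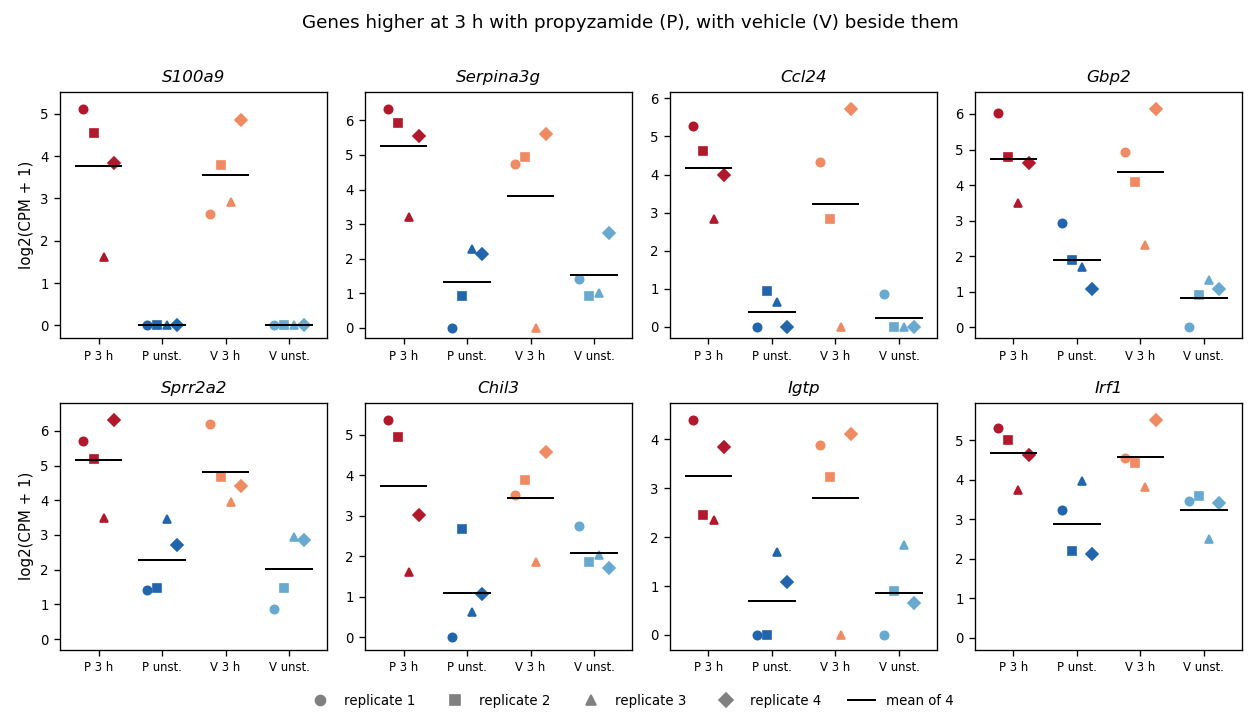
Levels of 8 genes higher at 3 h, as log2(CPM + 1), per library in propyzamide 3 h, propyzamide unstimulated, vehicle 3 h and vehicle unstimulated groups (marker shape gives the replicate, bars the mean of 4). S100a9 had no counts in the 4 unstimulated propyzamide libraries and 2.06 to 33.7 CPM at 3 h, and 3 h replicate 3 was the lowest of the 3 h libraries in each of the 8 panels.

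Among genes of inflammatory myeloid cells, S100a9 and Ccl24 rose. S100a9 (chromosome 3, 90692632 to 90695721), a subunit of the calcium-binding protein calprotectin of neutrophils and monocytes, had 33.7, 22.2, 2.06 and 13.3 CPM at 3 h and 0 in each unstimulated library. CPM, counts scaled to library size, are adjusted here by edgeR's TMM factors and taken over the counts of the 3799 tested genes, satellite models included. The groups did not overlap, and against a floor of 3 counts over the unstimulated group S100a9 was at least 29.9-fold higher (75 counts against 0, edgeR adjusted p = 0.0159). Its partner S100a8 had 13.6, 11.9, 0 and 1.57 CPM at 3 h and 0, 0.900, 0 and 0 without stimulation, so the groups overlapped at 0. That is 27 counts against 1, a ratio of 32.3 with a 95% counting interval of 5.32 to 1321 (edgeR adjusted p = 0.155).

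Ccl24 (chromosome 5, 135569937 to 135573049), the eosinophil-attracting chemokine eotaxin-2 of macrophages, had 37.7, 23.7, 6.17 and 14.9 CPM at 3 h and 0, 0.900, 0.557 and 0 CPM without stimulation. Every 3 h library was above every unstimulated library. With 85 counts against 2 the ratio was 50.8 (95% counting interval 13.6 to 426), and edgeR gave a log2 fold change of 5.41 ± 1.09 (SE, adjusted p = 0.0175). Chil3, a chitinase-like protein of macrophages and neutrophils, had 40.1, 29.7, 2.06 and 7.06 CPM at 3 h and 0, 5.4, 0.557 and 1.12 CPM without stimulation. Its log2 fold change of 3.42 ± 0.90 missed the threshold (adjusted p = 0.0606), and it passed when named protein-coding genes were fitted alone (adjusted p = 0.0273).

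Across the inflammatory list of 26 chemokine, cytokine and myeloid genes, 10 were tested, 8 had higher values at 3 h, and 1 was called, where 0.158% of all genes were called higher and 760 of the 2465 named protein-coding genes had higher values. The median log2 fold change of the 10 was 1.0, where all 3799 genes had -0.13. Without replicate 3 of both groups it was 1.70, where all 3799 genes had 0.01. Cxcl2, a neutrophil-attracting chemokine, averaged 32.1 ± 18.2 CPM at 3 h and 12.2 ± 9.95 CPM without stimulation (SD, n = 4 each, adjusted p = 0.406). Acod1, the itaconate-making enzyme of activated macrophages, averaged 17.7 ± 15.6 CPM at 3 h and 4.03 ± 3.08 CPM without stimulation (adjusted p = 0.276). The granulocyte list had 5 of 17 members tested, 4 of them higher, 1 called and a median of 1.26, and 1.93 without replicate 3 of both groups. Its summed level was 123, 114, 6.17 and 67.5 CPM in the 3 h libraries and 36.7, 50.4, 56.9 and 31.3 CPM in the unstimulated libraries, so replicate 3 fell below the unstimulated group while the other 3 lay above it. Elane and Ly6g, both members of the granulocyte list, had 0 counts in all 8 libraries, whereas Csf3r had 26 counts at 3 h and 12 without stimulation. In bulk RNA, fewer cells of a type and less RNA per cell cannot be told apart, and the same holds for more.

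The interferon-inducible GTPases, guanylate-binding and immunity-related proteins that act on intracellular pathogens, had the highest median of the 26 lists with at least 5 tested genes. Of 19 listed genes 9 were tested, and all 9 had positive log2 fold changes, with a median of 2.46 that stayed between 2.06 and 2.66 when each of the 8 libraries was left out. Gbp2 (chromosome 3, 142620602 to 142638008) was the member called, where 0.158% of all genes were called higher. It had 64.1, 26.7, 10.3 and 23.6 CPM at 3 h and 6.68, 2.7, 2.23 and 1.12 CPM without stimulation. The groups did not overlap, and the log2 fold change was 3.46 ± 0.79 (SE, edgeR adjusted p = 0.0323). Gbp2 was called in 2 of the 8 fits that leave out a library, with adjusted p up to 0.147 without unstimulated replicate 3.

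Igtp, an immunity-related GTPase, had 20.03, 4.45, 4.12 and 13.3 CPM at 3 h and 0, 0, 2.23 and 1.12 CPM without stimulation. The groups did not overlap, and the log2 fold change was 3.34 ± 0.92 (adjusted p = 0.0754, or 0.0273 with named protein-coding genes alone). Ifi47, a further immunity-related GTPase, had 12.8, 10.4, 0 and 15.7 CPM at 3 h and 3.34, 1.8, 1.67 and 1.12 CPM without stimulation, where 3 h replicate 3 made the groups overlap (2.46 ± 0.79, adjusted p = 0.155). Log2 fold changes of the other 6 tested members, which were not called, ran from 0.58 in Gbp4 to 3.11 in Gbp6. The summed level of the list was 199.5, 120.1, 49.4 and 111.5 CPM at 3 h and 48.4, 54.0, 28.4 and 30.2 CPM without stimulation, so that replicate 3 of the 3 h group overlapped the highest unstimulated libraries.

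The interferon-stimulated list held no call. Irf1, the transcription factor that carries much of the interferon-gamma response, had 38.5, 31.1, 12.3 and 23.6 CPM at 3 h and 8.35, 3.6, 14.5 and 3.35 CPM without stimulation. Unstimulated replicate 3 overlapped the 3 h group, and the log2 fold change of 1.78 ± 0.50 was not called (edgeR adjusted p = 0.0886, or 0.0273 with named protein-coding genes alone). Of the 17 interferon-stimulated genes tested among 32 listed, 11 had higher values, 0 were called, and the median was 0.66, and 1.03 without replicate 3 of both groups. Cxcl10, the T cell-attracting chemokine of interferon-gamma, had 18.4, 8.9, 4.12 and 3.14 CPM at 3 h and 0, 1.8, 0 and 1.12 CPM without stimulation. The groups did not overlap, the ratio of 35 to 3 counts was 13.9 (95% counting interval 4.39 to 70.8), and the adjusted p was 0.155.

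No antigen presentation gene was called. MHC class I presentation genes were tested in 18 of 20 cases, 9 higher and 9 lower, with a median of 0.09 that became -0.09 under RLE normalization and ran from -0.21 to 0.25 without each library in turn. All 11 MHC class II genes were tested and all had negative log2 fold changes, with a median of -0.68 beside -0.42 for all named protein-coding genes. Their summed level was 766, 789, 39.1 and 870 CPM at 3 h and 927, 561, 1037 and 1184 CPM without stimulation. Replicate 3 of the 3 h group lay far under the other 7 libraries, and without replicate 3 of both groups the median was -0.34.

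Serpina3g (chromosome 12, 104236245 to 104241939), an intracellular serine protease inhibitor of activated lymphoid and myeloid cells, had the smallest adjusted p of the higher genes with counts in both groups. It had 79.3, 59.3, 8.23 and 45.5 CPM at 3 h and 0, 0.900, 3.9 and 3.35 CPM without stimulation. The groups did not overlap, and the log2 fold change was 4.36 ± 0.81 (SE, edgeR adjusted p = 0.0159). It was called in 7 of the 8 fits without 1 library, the exception being that without unstimulated replicate 3 (adjusted p = 0.0661). It was also called without replicate 3 of both groups (adjusted p = 0.0176). Neither limma-voom with quality weights (adjusted p = 0.2) nor limma-trend on log2(TPM + 1) (adjusted p = 0.0928) called it.

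The other cytotoxic and T cell activation genes gave values but no calls. In the cytotoxic list 5 of 17 members were tested and all 5 had higher values, Serpina3g being the call, where 0.158% of all genes were called higher. The list median was 1.19, and 1.91 without replicate 3 of both groups. Gzmb, the protease granzyme B of killer lymphocytes, averaged 10.1 ± 5.6 CPM at 3 h and 2.57 ± 3.23 CPM without stimulation (SD, n = 4 each, adjusted p = 0.304). The T cell activation list had 6 of 27 members tested, 4 higher and 2 lower, 0 called and a median of 0.18 that ran from -0.11 to 0.42 without each library in turn. The T cell list had 5 of 21 members tested, 3 higher and 2 lower, 0 called, with a median of 0.79 that ran from -0.21 to 1.25 without each library in turn. Over all 21 members the summed level went the other way. That level was 53.7, 32.6, 24.7 and 30.6 CPM at 3 h and 53.4, 70.2, 55.2 and 60.3 CPM without stimulation, so 3 h replicate 1 overlapped the unstimulated group. Lck, the kinase that starts T cell receptor signalling, had 2.4, 1.48, 0 and 1.57 CPM at 3 h and 8.35, 4.5, 7.8 and 11.2 CPM without stimulation. Its groups did not overlap, and it was not called (-2.28 ± 0.58, adjusted p = 0.0525). Immediate early genes, which answer receptor signals within the hour, were tested in 12 of 19 cases, all 12 with lower values at 3 h and 0 called, with a median of -1.15, and -0.60 without replicate 3 of both groups. Fos, a subunit of AP-1, had 57.7, 62.3, 4.12 and 35.3 CPM at 3 h and 70.1, 67.5, 132 and 92.7 CPM without stimulation (adjusted p = 0.276).

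Sprr2a2 (chromosome 3, 92215920 to 92256724), a small proline-rich protein of the stressed intestinal epithelium, was the epithelial gene that rose. It had 51.3, 35.6, 10.3 and 77.7 CPM at 3 h and 1.67, 1.8, 10.03 and 5.59 CPM without stimulation. The groups were separated by a narrow margin, between 10.3 CPM in 3 h replicate 3 and 10.03 CPM in unstimulated replicate 3. The log2 fold change was 3.08 ± 0.75 (SE, edgeR adjusted p = 0.0476), and the call held in 1 of the 8 fits without 1 library, that without 3 h replicate 3 (adjusted p = 0.0405). Its near-identical copies Sprr2a1 and Sprr2a3 had 0 and 7 counts at 3 h, and the estimated counts split reads between such copies, so the assignment to 1 copy is uncertain. Gpx2, an antioxidant enzyme of the epithelium, averaged 34.1 ± 20.1 CPM at 3 h and 13.5 ± 11.1 CPM without stimulation (SD, n = 4 each, adjusted p = 0.341). The other 14 tested epithelial identity genes had lower values, and the median of the 16 tested was -0.99, with -0.60 without unstimulated replicate 3 and -0.32 without replicate 3 of both groups.

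Gm22690, a gene model on chromosome 4 annotated as a microRNA, was the sixth gene that rose, with 26.5, 2.97, 22.6 and 8.63 CPM at 3 h and 0 in each unstimulated library, at least 22.7-fold (edgeR adjusted p = 0.0424). Unlike the others it had the opposite sign with vehicle (-4.57 ± 1.51, adjusted p = 0.399), and its call held in 1 of the 8 fits without a library.

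**Figure D2:**
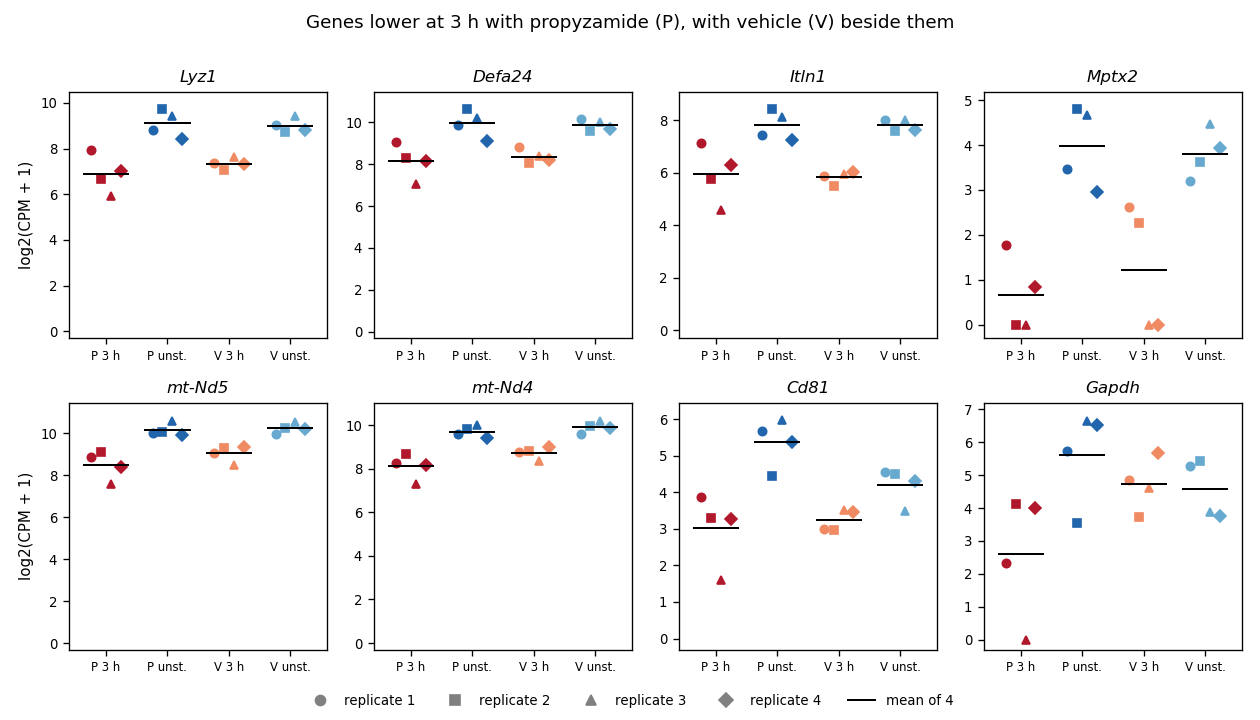
Levels of 8 genes lower at 3 h, as log2(CPM + 1), per library in propyzamide 3 h, propyzamide unstimulated, vehicle 3 h and vehicle unstimulated groups (marker shape gives the replicate, bars the mean of 4). Lyz1 lay at 59.7 to 244 CPM at 3 h and 341 to 841 CPM without stimulation, and the Gapdh panel shows overlapping groups with propyzamide.

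Paneth cells secrete lysozyme, alpha-defensins and lectins into the crypt, and 6 of the 19 such genes tested fell. Lyz1 (chromosome 10, 117287797 to 117292868), the lysozyme of Paneth cells, had 244, 99.4, 59.7 and 128 CPM at 3 h and 451, 841, 697 and 341 CPM without stimulation. No 3 h library reached the lowest unstimulated library, and the log2 fold change was -2.12 ± 0.41 (SE, edgeR adjusted p = 0.0159). Lyz1 was called in 6 of the 8 fits without 1 library, and missed the threshold without 3 h replicate 3 (adjusted p = 0.0806) and without unstimulated replicate 3 (adjusted p = 0.0661).

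Defa24, an alpha-defensin that kills bacteria by breaking membranes, had 533, 311, 130 and 287 CPM at 3 h and 927, 1562, 1189 and 556 CPM without stimulation (-1.74 ± 0.40, adjusted p = 0.0325). Its groups did not overlap, the highest 3 h library lying just under the lowest unstimulated one. Defa21 averaged 28.1 ± 18.3 CPM at 3 h and 126 ± 23.5 CPM without stimulation (SD, n = 4 each), with no overlap (-2.10 ± 0.52, adjusted p = 0.0476). Defa29 averaged 9.63 ± 4.19 CPM at 3 h and 58.6 ± 30.6 CPM without stimulation (-2.60 ± 0.54, adjusted p = 0.0227), and its groups overlapped, since 3 h replicate 2 had 14.8 CPM and unstimulated replicate 4 had 14.5 CPM. Alpha-defensins are near-identical copies on chromosome 8 and estimated counts split reads between them, so the value of each single gene is uncertain.

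Itln1, a lectin that binds microbial sugars, had 139, 53.4, 22.6 and 76.9 CPM at 3 h and 170, 340, 280 and 152 CPM without stimulation. The gap between the groups was narrow and the call marginal (-1.67 ± 0.41, adjusted p = 0.0478). Mptx2, a pentraxin of Paneth cells, had 2.4, 0, 0 and 0.785 CPM at 3 h and 10.02, 27.0, 24.5 and 6.7 CPM without stimulation, also without overlap (-4.01 ± 0.87, adjusted p = 0.029). In all, 19 of 25 Paneth genes were tested, 18 had lower values and 6 were called, where 0.553% of all genes were called lower. Their median was -1.74, and between -2.20 and -1.53 without each library in turn. The exception in sign was Reg3g, an inducible lectin against Gram-positive bacteria, at 32.7 ± 25.8 CPM at 3 h and 30.3 ± 27.3 CPM without stimulation (SD, n = 4 each, adjusted p = 0.922). The summed level of the list was 2022, 998, 397 and 1107 CPM at 3 h and 3341, 5702, 4639 and 2269 CPM without stimulation, with no overlap. Without replicate 3 of both groups its median was -1.43 and none of its members was called. With named protein-coding genes alone Defa24, Defa21 and Itln1 were not called (edgeR adjusted p = 0.116, 0.102 and 0.124). Lyz1, Defa29 and Mptx2 were still called in that fit (edgeR adjusted p = 0.0331, 0.0288 and 0.0281).

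Other epithelial lineages had lower values without calls, and their spread between unstimulated libraries was wide. Absorptive enterocyte genes were tested in 9 of 26 cases, all 9 lower, with a median of -1.90. Fabp1, a fatty acid carrier, had 29.7, 32.6, 0 and 25.9 CPM at 3 h and 86.8, 12.6, 187 and 49.2 CPM without stimulation (adjusted p = 0.369). The summed enterocyte level was 115, 81.6, 30.9 and 107 CPM at 3 h and 235, 68.4, 809 and 217 CPM without stimulation, the highest being unstimulated replicate 3. Without replicate 3 of both groups the enterocyte median was -0.91. All 7 of the 12 goblet cell genes that were tested had lower values, with 0 calls and a median of -1.02, and -0.59 without replicate 3 of both groups.

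Of the plasma cell, macrophage and B cell lists, 1 gene was called, where 0.553% of all genes were called lower. Ighg1, the constant region of IgG1 antibodies, fell with a log2 fold change of -3.42 ± 0.84 (SE, edgeR adjusted p = 0.0477): it had 3.21, 1.48, 0 and 3.93 CPM at 3 h and 1.67, 12.6, 33.4 and 61.4 CPM without stimulation, so the groups overlapped. Igha, the IgA constant region, averaged 194 ± 174 CPM at 3 h and 503 ± 164 CPM without stimulation (SD, n = 4 each, adjusted p = 0.352). Of 12 tested plasma cell genes 11 had lower values, with a median of -1.18, and -0.67 without replicate 3 of both groups. All 8 tested macrophage genes of 17 listed had lower values and 0 were called, with a median of -1.08, and -0.50 without replicate 3 of both groups. Selenop, the selenium carrier made by resident macrophages, averaged 12.7 ± 5.03 CPM at 3 h and 51.1 ± 38.3 CPM without stimulation (-2.0 ± 0.50, adjusted p = 0.0509), and with vehicle it was called (-2.40 ± 0.52, adjusted p = 0.0358). All 15 tested B cell genes also had lower values, with 0 calls and a median of -0.62, and -0.32 without 3 h replicate 3, beside -0.42 for all named protein-coding genes.

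Of the 15 transcripts of the mitochondrial genome 5 fell, where 0.553% of all genes were called lower. None of the 5 was called without 3 h replicate 3 or without unstimulated replicate 3. mt-Nd5, a subunit of respiratory complex I, had 469, 546, 193 and 339 CPM at 3 h and 1047, 1081, 1557 and 958 CPM without stimulation. The groups did not overlap (-1.58 ± 0.32, edgeR adjusted p = 0.0175, and 0.0852 without 3 h replicate 3). mt-Nd4 of the same complex (-1.54 ± 0.31, adjusted p = 0.0175), mt-Cytb of complex III (-1.55 ± 0.34, adjusted p = 0.0297), the ribosomal RNA mt-Rnr2 (-1.59 ± 0.35, adjusted p = 0.0297) and mt-Co1 of complex IV (-1.32 ± 0.32, adjusted p = 0.0476) were called too. All 15 mitochondrially encoded genes were tested and had lower values, with a median of -1.37, and of -0.79 without replicate 3 of both groups. Their share of all counts was 1.63%, 1.28%, 0.522% and 1.16% at 3 h and 2.56%, 2.07%, 5.49% and 2.47% without stimulation. The mean was 1.15% ± 0.462 at 3 h and 3.15% ± 1.58 without stimulation (SD, n = 4 each, two-sided exact permutation p = 0.0286, the smallest 4 against 4 libraries can give, and 0.0857 adjusted over 3 shares). With vehicle the mitochondrial share was 1.14% ± 0.34 at 3 h and 3.19% ± 0.85 without stimulation (SD, n = 4 each). The list median with vehicle was -1.17, with 0 members called. Named protein-coding genes took 5.54% ± 1.06 at 3 h and 6.94% ± 2.09 without stimulation with propyzamide (exact permutation p = 0.286).

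The other lower calls were single genes, and each was lost without 3 h replicate 3 and without unstimulated replicate 3. Gapdh, a glycolytic enzyme, had 4.01, 16.3, 0 and 14.9 CPM at 3 h and 51.8, 10.8, 100.3 and 90.5 CPM without stimulation, with 1 unstimulated library inside the 3 h range (-2.78 ± 0.63, edgeR adjusted p = 0.0323). Tpi1 and Gpi1, further glycolytic enzymes, just missed the threshold (adjusted p = 0.0563 and 0.0591). Glycolysis genes were tested in 10 of 16 cases, 9 lower and 1 called, where 0.553% of all genes were called lower. The list median was -0.99, and -0.27 without replicate 3 of both groups.

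Pold4, an accessory subunit of DNA polymerase delta, had 0 counts at 3 h and 3.34, 4.5, 3.34 and 10.1 CPM without stimulation, at least 6.14-fold lower against a floor of 3 counts over the 3 h group (adjusted p = 0.0297). Myl12b, a regulatory light chain of non-muscle myosin, had 1.6, 0, 0 and 0 CPM at 3 h and 11.7, 4.5, 15.1 and 11.2 CPM without stimulation (-4.20 ± 0.96, adjusted p = 0.0325). Cd81, a tetraspanin of the B cell co-receptor also found on many other cells, had 13.6, 8.9, 2.06 and 8.63 CPM at 3 h and 50.1, 20.7, 61.3 and 40.2 CPM without stimulation (-2.28 ± 0.48, adjusted p = 0.0227). None of these 3 genes overlapped between groups.

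Pwwp3a, a chromatin protein of the DNA damage response, averaged 4.55 ± 1.84 CPM at 3 h and 19.0 ± 5.35 CPM without stimulation (SD, n = 4 each, adjusted p = 0.0325). The remaining named genes that fell were Idh3g, a subunit of mitochondrial isocitrate dehydrogenase (-2.23 ± 0.52), Man2b1, the lysosomal alpha-mannosidase (-2.68 ± 0.63), and Oat, ornithine aminotransferase (-2.59 ± 0.63). Malat1, a nuclear long non-coding RNA, averaged 8.03 ± 7.49 CPM at 3 h and 48.1 ± 19 CPM without stimulation (-2.38 ± 0.54, adjusted p = 0.0323).

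Large housekeeping lists had mostly lower values and no call. Nuclear oxidative phosphorylation genes were tested in 54 of 88 cases, 51 lower, 0 called, with a median of -1.12, and of -0.48 without replicate 3 of both groups. Cytosolic ribosomal protein genes were tested in 78 of 81 cases, 74 lower, 0 called, with a median of -0.57, and of -0.09 without replicate 3 of both groups. Tubulin and microtubule genes, the known target class of propyzamide in plants, were tested in 11 of 18 cases, 10 lower, 0 called, with a median of -0.95, and -0.56 without replicate 3 of both groups. Tubb5, a beta-tubulin, had 19.2, 17.8, 2.06 and 16.5 CPM at 3 h and 25.1, 32.4, 35.7 and 63.7 CPM without stimulation (adjusted p = 0.153). Heat shock genes (median -0.91, and -0.24 without replicate 3 of both groups), proliferation genes (-0.86, and -0.35 without replicate 3 of both groups) and NF-kappaB genes (-0.20, and 0.05 with named protein-coding genes alone) held no call. The median over named protein-coding genes was -0.42 and that over the other models 0.29, which became -0.12 and 0.19 without replicate 3 of both groups. The part of depth in the lower lists was not tested.

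**Figure D3:**
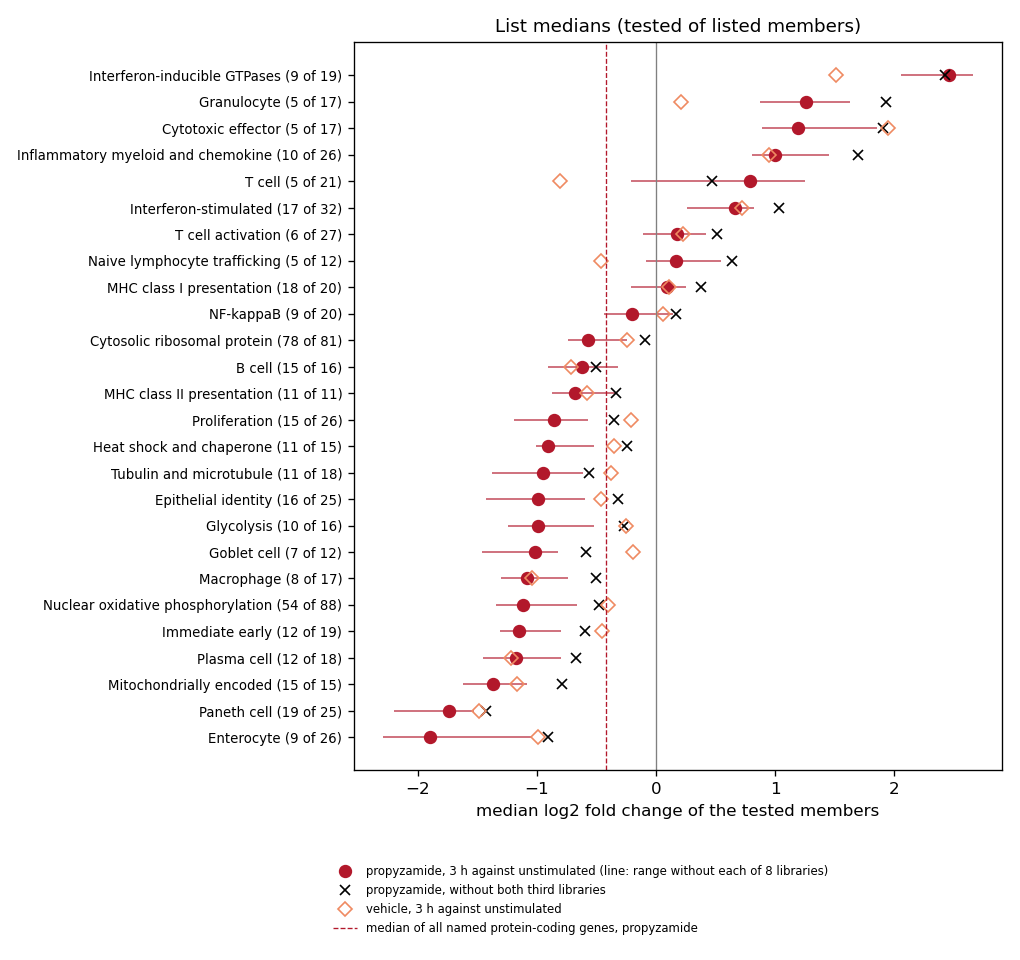
Median log2 fold change of the tested members of each list with at least 5 tested genes, 3 h against unstimulated, for propyzamide (filled circles, with the range over fits without 1 library), propyzamide without replicate 3 of both groups (crosses) and vehicle (open diamonds). The interferon-inducible GTPases lie highest at 2.46, the Paneth genes at -1.74 and the enterocyte genes lowest at -1.90, and the dashed line marks the -0.42 of all named protein-coding genes.

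The response with propyzamide was then set beside that with vehicle, which shares no library with it. With vehicle 11 of 3799 genes were called (0.29%). Called with both were Ccl24, Gbp2, Itln1, S100a9 and Serpina3g, which make 18.5% of the propyzamide calls and 45.5% of the vehicle calls, and 24 of the 27 propyzamide calls had the same sign with vehicle. S100a9 had a mean of 13.1 ± 10.3 CPM in vehicle 3 h libraries and 0 in vehicle unstimulated libraries (SD, n = 4 each, edgeR adjusted p = 0.00442). Gbp2 had 29.7 ± 28.5 CPM in vehicle 3 h libraries and 0.887 ± 0.651 CPM in vehicle unstimulated libraries (4.87 ± 0.84, adjusted p = 0.00442). Lyz1 had 163 ± 27.2 CPM in vehicle 3 h libraries and 518 ± 118 CPM in vehicle unstimulated libraries (-1.67 ± 0.40, adjusted p = 0.0653). Of the 19 Paneth genes tested, 3 were called lower with vehicle, where 4 of all 3799 genes were called lower. The Paneth median was -1.49 with vehicle and -1.74 with propyzamide. For the interferon-inducible GTPases it was 1.51 with vehicle and 2.46 with propyzamide, and for enterocyte genes -0.99 and -1.90.

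The difference between the responses was tested as the interaction of anti-CD3 and propyzamide at 3 h. edgeR called 0 of 3799 genes (0%), DESeq2 also 0, and 123 had an unadjusted p under 0.05, so no gene passed the threshold in this contrast. Among the groups of this contrast the propyzamide 3 h group alone carries another i5 index. Index and interaction therefore cannot be told apart here, which holds for each difference below. The smallest p was that of Gm22690 (2.4e-05, adjusted 0.091). Next by p among named protein-coding genes were Pwwp3a (difference -2.10 ± 0.62), Myl12b (-4.04 ± 1.18), Gapdh (-2.86 ± 0.85), Pold4 (-5.84 ± 1.80) and Rsrc2 (-3.12 ± 1.03), each with an edgeR adjusted p of 0.997. Gapdh, for example, had 28.5 ± 16.1 CPM in vehicle 3 h libraries and 26.7 ± 15.8 CPM in vehicle unstimulated libraries (SD, n = 4 each). Gzmb and Acod1 were called with vehicle alone (adjusted p = 0.00665 each), and their differences of -2.76 ± 1.13 and -2.92 ± 1.25 had an adjusted p of 0.997.

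**Figure D4:**
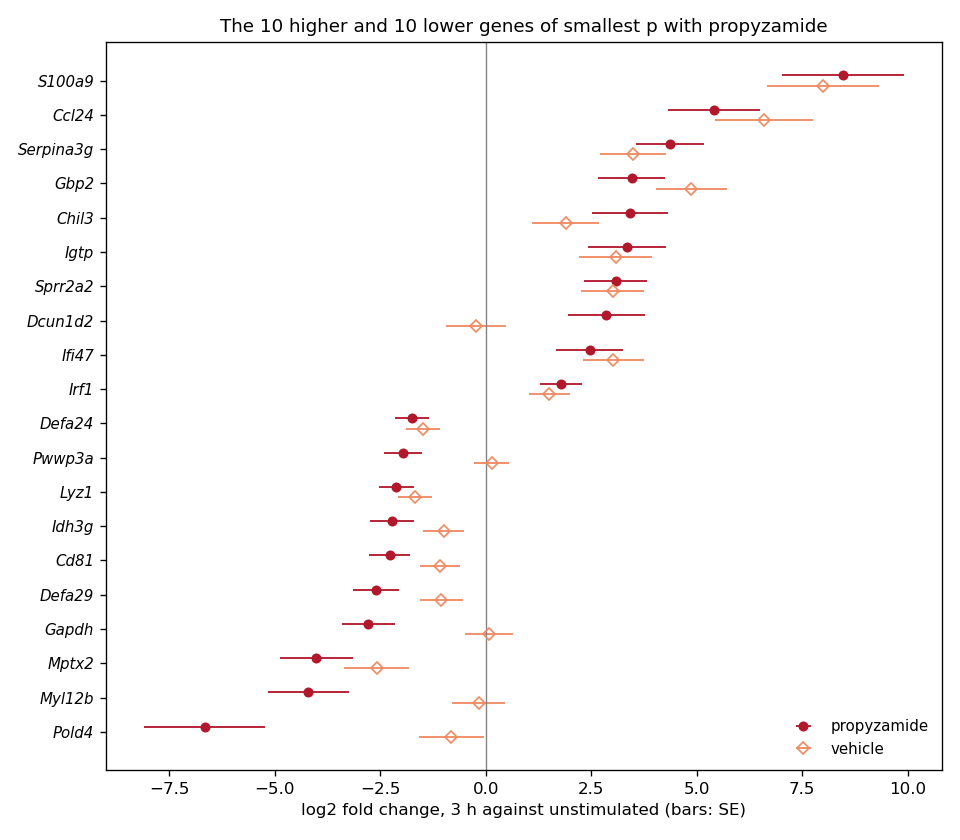
Log2 fold change of 3 h against unstimulated libraries, with its SE, for the 10 higher and 10 lower named protein-coding genes of smallest p with propyzamide (filled) and the same genes with vehicle (open). Serpina3g lies at 4.36 with propyzamide and 3.49 with vehicle, while Gapdh lies at -2.78 with propyzamide and 0.08 with vehicle. Values of S100a9 and Pold4 rest on a group without counts and depend on the prior count of the fit.

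The number of calls and their split depended on the settings. Beside the 6 higher and 21 lower genes reported, RLE normalization gave 6 higher and 47 lower. The limma-voom fit with quality weights gave 0 higher and 7 lower, and limma-trend on log2(TPM + 1) gave 1 higher and 4 lower. S100a9 was called by limma-trend (adjusted p = 0.00651) and not by limma-voom (adjusted p = 0.0944). With named protein-coding genes alone edgeR called 8 higher and 8 lower genes, and the 8 higher were the 5 named risers with Chil3, Igtp and Irf1. Without 3 h replicate 3 it called 5 genes, all higher, and without unstimulated replicate 3 it called 0, with 309 at an unadjusted p under 0.05. Without replicate 3 of both groups S100a9 (adjusted p = 0.0184) and Serpina3g (adjusted p = 0.0176) were the 2 genes called, and Ccl24 had an adjusted p of 0.0807.

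**Figure D5:**
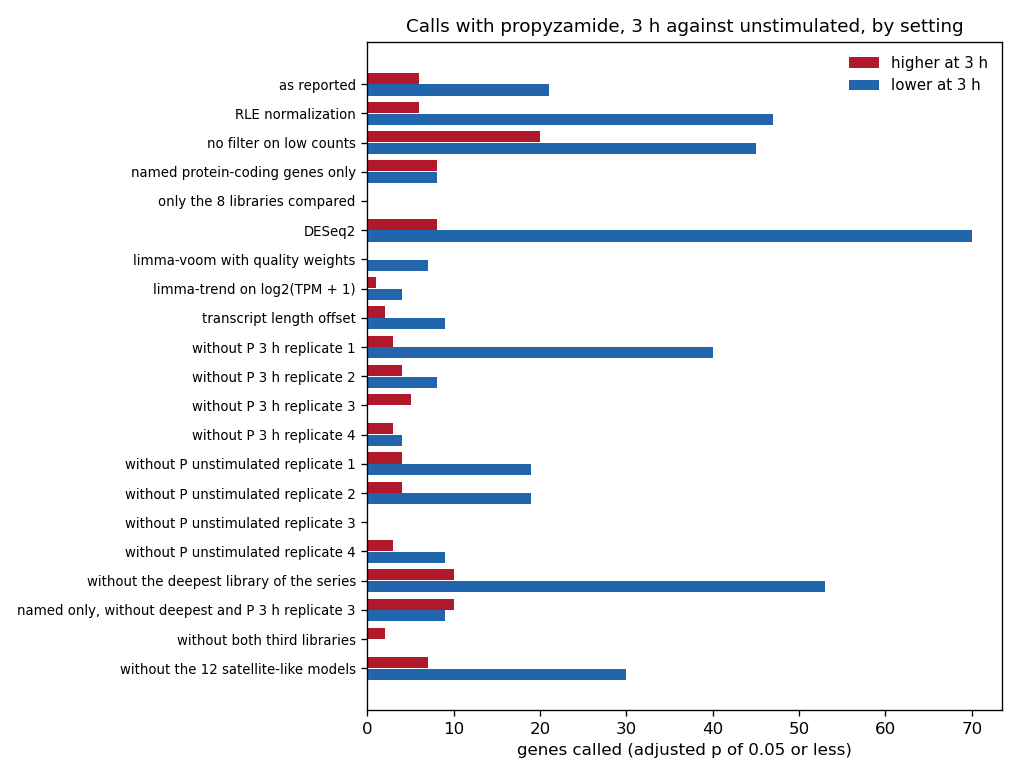
Number of genes called higher (red) and lower (blue) at 3 h with propyzamide under each setting, at an adjusted p of 0.05 or less. The reported fit gives 6 higher and 21 lower, DESeq2 gives 8 higher and 70 lower, and the fits without unstimulated replicate 3 and with the 8 compared libraries alone give 0. The fit with the 8 libraries alone tested 17 of the 27 reported genes.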

How the data were processed

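Libraries were made with SMART-seq2, per the labels' protocols, and quantified with kallisto on GRCm38, per the submitters' processing notes, with the version not given in the sources used here. The deposited files give estimated counts (expected counts per transcript, not scaled to depth), TPM and effective transcript lengths, per the file headers. The effective length, of the unit class other, is in bases as deposited by the authors.

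Estimated counts of 142604 transcripts were summed to 55401 genes and rounded. All 24 libraries entered 1 edgeR 4.0.16 fit in R 4.3.3 (filterByExpr, TMM, quasi-likelihood F test, 1 coefficient per group), which left 3799 genes, 2465 of them named protein-coding. This pools the spread of 6 groups. Genes were called at 0.05 after Benjamini-Hochberg adjustment over all genes tested. A gene tested only through its higher group had to differ, so list counts are descriptions. Satellite-like models share at least 5% of their stretches of 31 bases with Gm10800. Shares of counts were compared by exact permutation tests. Alternatives used RLE, DESeq2 1.42.0, limma 3.58.1 and others. Depth is in the report: 3 counts equal 1.89 to 6.84 unscaled CPM, taken here over all counts of a library. Without molecular identifiers reads are not independent molecules, so intervals and floors reflect counting error alone. On simulated data for this comparison, over 4884 genes with 200 changed, 23% of 4-fold and 83% of 16-fold changes were recovered with 1 false call. The simulation gave all genes a common spread and, apart from the changed genes, all libraries the same composition. Its recovery and false calls therefore need not hold for the real libraries.

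Members, lists and rules were chosen with earlier results of these data known. Named genes are the 10 higher and 10 lower named protein-coding genes of smallest p, up to 3 members of each list and the 5 smallest p of the interaction. Other called genes, and list members given for their level or sign, were chosen after their values were seen. Strand handling is not given in the sources used here, so overlapping genes cannot be told apart. Replicates were numbered in record order.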

Additional observations from a re-analysis of the deposited data

Results flagged for a closer look

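Of 130 groups of 4 values examined, 7 held a value far from the other 3 by Dixon's test, and chance flags about 1 in 20 groups. Unstimulated replicate 3 had 5.49% mitochondrial counts, far above the other unstimulated propyzamide libraries. In 3 h replicate 3, H2-Eb1, an MHC class II chain, had 8.23 CPM and Tubb5 had 2.06 CPM, both far under the other 3 h libraries. This library also had the fewest counts in named protein-coding genes, 17959, and what part that has in the low values was not tested. In unstimulated replicate 2, H2-Eb1 had 71.1 CPM, the lowest of its group, and S100a8 had 0.900 CPM where the other 3 libraries had 0. Ciita, the activator of MHC class II genes, had 33.5 CPM in unstimulated replicate 4, the highest of its group. Myl12b had 1.6 CPM in 3 h replicate 1, where the other 3 libraries had 0. For S100a8 and Myl12b, with the other 3 values at 0, any value above 0 would be flagged. The rate of 1 in 20 does not apply to them.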

How the results depend on the processing

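The 27 calls became 53 under RLE normalization, 65 without the filter on low counts, 16 with named protein-coding genes alone, 78 with DESeq2, 7 with limma-voom, 5 with limma-trend on log2(TPM + 1), 11 with a length offset and 63 without the deepest library of the series. With the 8 compared libraries alone, where 1809 genes were tested, 0 were called and 230 had an unadjusted p under 0.05. Only 17 of the 27 reported genes were tested in that fit. S100a9, Serpina3g and Ccl24 were not among them, so it gives no result for these genes. Of the 27, RLE kept 26, DESeq2 26, no filter 24, named genes alone 13, the length offset 11, limma-voom 7 and limma-trend 5. Chosen after seeing the data, leaving out replicate 3 of both groups gave 2 calls, and leaving out the 12 satellite-like models gave 37. Leaving out 1 of the 8 libraries gave 0 to 43 calls: 43, 12, 5 and 7 without 3 h replicates 1, 2, 3 and 4, and 23, 23, 0 and 12 without unstimulated replicates 1, 2, 3 and 4. The interaction gave 21 calls without the filter, 1 without vehicle unstimulated replicate 2 (Gm22690), and 0 to 1 over the fits without 1 library. The mitochondrial share difference of -1.999 percentage points ran from -2.36 to -1.22 without 1 library, each with an exact permutation p of 0.0571, the smallest 3 against 4 libraries can give. The satellite-like share difference of -0.51 ran from -1.84 to 1.01 without 1 library, turning to 1.01 without 3 h replicate 4 and 0.555 without unstimulated replicate 2. For single genes named, 0 values turned sign, 244 lost and 55 gained a call over all settings, and 853 did neither. The cause of these moves was not tested. No paired analysis was possible because the labels give replicates no numbers. In data simulated at these library totals, with a common spread for all genes and no outlying library, 23% of 4-fold changes were recovered. This need not hold for the real libraries, and which of depth and spread limits it was not tested.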
